A study of Mus musculus with 3 samples.

Results

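The genes described here encode the major histocompatibility complex (MHC) of the mouse, called H2, together with the proteins that load peptide onto MHC molecules. The 58 members are the 50 symbols of the deposited table that begin with H2- and B2m, Tap1, Tap2, Tapbp, Erap1, Nlrc5, Ciita and Cd74, out of 44788 symbols listed. Their RNA was counted by sequencing in 3 libraries of splenic T lymphocytes from female BALB/c mice 6 to 8 weeks old, isolated with magnetic beads against CD90.2, a T cell surface protein. All 3 received the same treatment, 15 h with LZ-8, an immunomodulatory protein of the fungus Ganoderma lucidum that is mitogenic for T cells. The libraries form 1 group with no untreated cells analysed here, so the values are levels, ratios within a library and differences between replicates, and no effect of LZ-8 is measured. No label ties the replicates to separate animals or cultures, and p-values measure only the spread between these libraries, which may be technical.

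Class I molecules consist of a heavy chain and the light chain beta-2 microglobulin, carry peptides from the cytosol to the surface of nearly all nucleated cells and are read by CD8 T cells. Class II molecules pair an alpha and a beta chain, carry peptides from endosomes and are read by CD4 T cells. In mice they are made mainly by B cells, dendritic cells and macrophages. BALB/c mice carry the d haplotype of H2, whereas the reference genome comes from C57BL/6 mice of the b haplotype. The heavy chain genes are also close copies of each other, so reads of a d allele can be lost or credited to another H2 symbol. How far this moved the levels below was not tested. H2-L, a class I gene of the d haplotype, is not among the 50 H2- symbols listed. Any reads of it were therefore lost or credited to other symbols.

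The libraries held 19041670, 12669690 and 14715992 counts in replicates 1, 2 and 3. Levels are given as CPM, counts per 1000000 counts of the library, and levels of genes are compared as CPM per kb of exon; sums and shares of reads, where given, are not scaled by length. Members together took 0.947 ± 0.0207% of all counts (SD, n = 3). Of the 58 members, 36 had a mean of at least 1 CPM, beside 30.2% of all symbols, and 15 had at least 100 CPM, beside 5.74%. Another 16 members had no read in any library, beside 48.8% of all symbols. A count of 0 allows up to 0.158, 0.237 and 0.204 CPM in replicates 1, 2 and 3. Of these 16 members, 6 had no gene of that symbol in the GENCODE annotation used for lengths. Whether reads could be assigned to these symbols is not known, so that bound may not hold for them. The remaining 6 of the 58 members had a few reads each. T cell markers fitted the labelled cell type: all 10 of a fixed list exceeded 100 CPM, with a summed level of 4181 to 4339 CPM. In bulk RNA, fewer cells expressing a gene and less RNA per cell cannot be told apart.

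**Figure D1:**
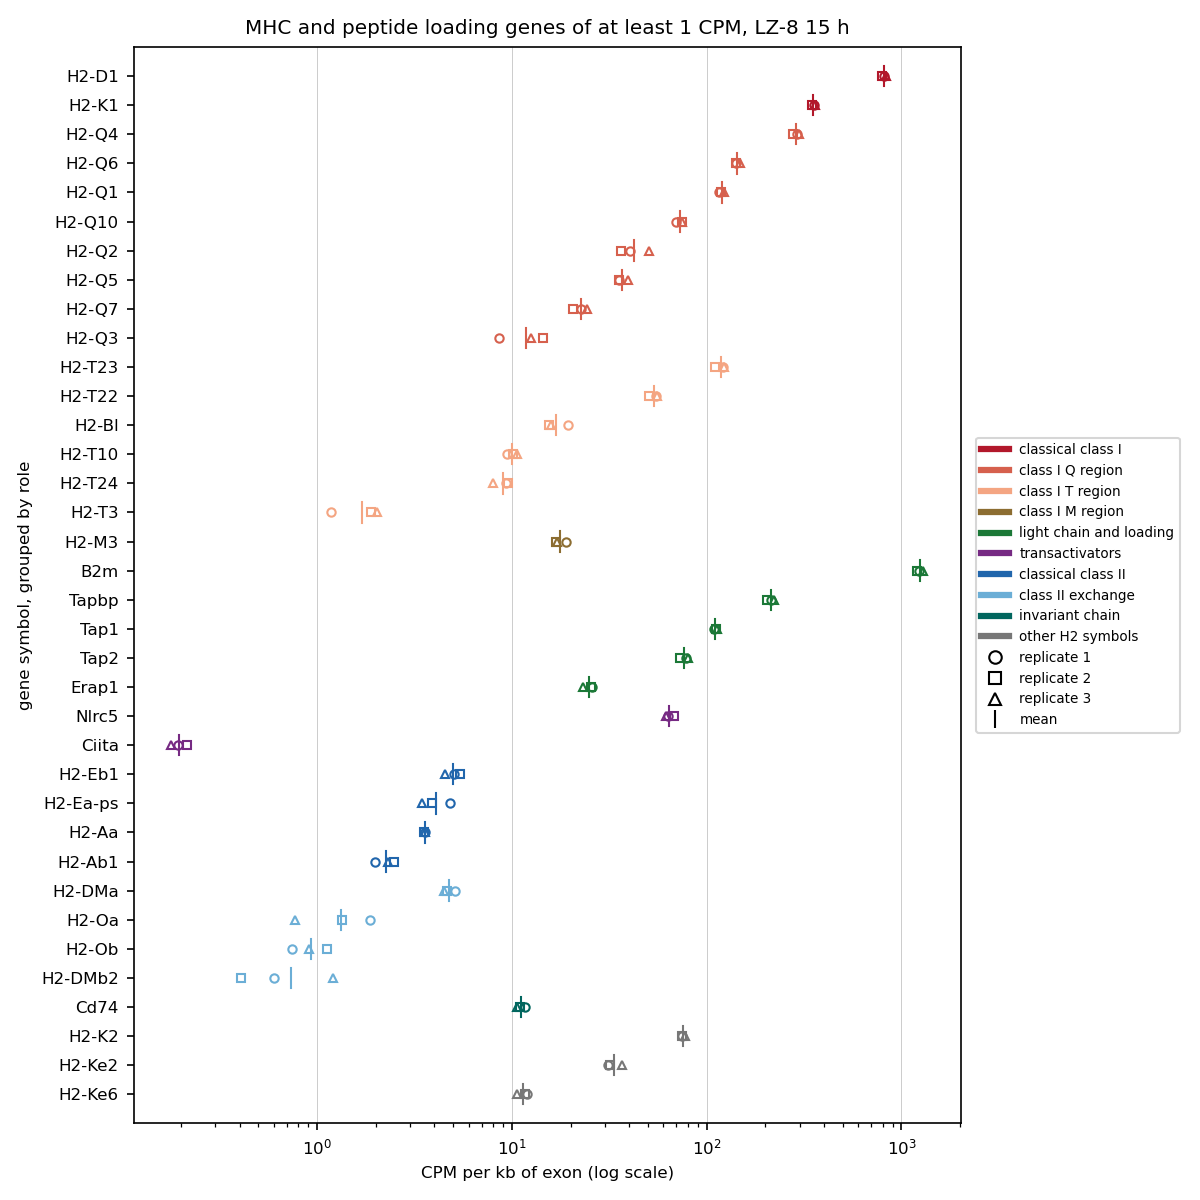
Level of each member of at least 1 CPM, as CPM per kb of merged exon on a log axis, in groups by role; each point is 1 of the 3 libraries. B2m and the classical class I genes H2-D1 and H2-K1 stand highest, Ciita stands lowest, and the class II genes lie at or below 5.01 CPM per kb, as does the class I gene H2-T3 at 1.70.

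Sequence upstream of the start site is shown first for 7 members, because the promoters of B2m and the class I and class II genes share short elements known to bind regulators of MHC transcription. The X2 box, of the TGACG type, is bound by CREB and ATF factors, and the Y box, CCAAT on either strand, by NF-Y. NLRC5 at class I genes and CIITA at class II genes are co-activators recruited to this assembly. An interferon-stimulated element and a kappa B element lie upstream of the boxes in class I promoters. Each sequence runs 5′ to 3′ on the strand of the gene, from 250 bases before the start to 50 bases from the start on, and comes from RefSeq (GRCm38.p6, the assembly that mm10 denotes; C57BL/6 and not BALB/c sequence). The positions are chr2:122147437-122147736 (plus strand) for B2m, chr17:34000284-34000583 (minus strand) for H2-K1, chr17:35262844-35263143 (plus strand) for H2-D1, chr17:36032652-36032951 (minus strand) for H2-T23, chr17:35469839-35470138 (plus strand) for H2-Q10, chr17:34287774-34288073 (minus strand) for H2-Aa and chr17:34305617-34305916 (plus strand) for H2-Eb1. Capitals mark matches, on either strand, to 4 motifs: CCAAT and also TGACG, a simple interferon-stimulated element (GAAA, any 2 bases and GAAA again) and a simple kappa B element (GGG, any 2 bases, T, any 2 bases and CC). Overlapping matches run together.
B2m: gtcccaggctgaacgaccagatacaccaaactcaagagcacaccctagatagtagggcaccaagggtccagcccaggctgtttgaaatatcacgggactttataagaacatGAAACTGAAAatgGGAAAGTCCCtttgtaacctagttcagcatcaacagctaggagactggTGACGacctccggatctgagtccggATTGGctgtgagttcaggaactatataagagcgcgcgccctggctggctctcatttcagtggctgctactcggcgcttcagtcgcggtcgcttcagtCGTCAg
H2-K1: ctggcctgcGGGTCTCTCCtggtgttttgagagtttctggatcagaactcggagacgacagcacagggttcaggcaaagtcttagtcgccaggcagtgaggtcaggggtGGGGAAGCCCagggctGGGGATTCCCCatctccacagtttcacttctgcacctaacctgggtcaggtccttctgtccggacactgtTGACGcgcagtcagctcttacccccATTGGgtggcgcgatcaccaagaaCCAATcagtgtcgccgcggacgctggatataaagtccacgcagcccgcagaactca
H2-D1: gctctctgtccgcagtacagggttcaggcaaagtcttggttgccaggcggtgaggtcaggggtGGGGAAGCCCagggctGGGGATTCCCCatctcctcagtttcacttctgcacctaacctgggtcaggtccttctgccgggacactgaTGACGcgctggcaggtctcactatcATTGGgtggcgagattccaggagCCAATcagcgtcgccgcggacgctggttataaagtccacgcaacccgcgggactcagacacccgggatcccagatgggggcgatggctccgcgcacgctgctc
H2-T23: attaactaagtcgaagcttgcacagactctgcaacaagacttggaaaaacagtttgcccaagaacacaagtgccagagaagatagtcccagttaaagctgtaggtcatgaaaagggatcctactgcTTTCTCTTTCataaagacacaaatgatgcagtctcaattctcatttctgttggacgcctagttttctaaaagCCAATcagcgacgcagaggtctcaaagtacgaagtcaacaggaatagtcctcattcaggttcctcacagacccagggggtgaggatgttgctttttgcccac
H2-Q10: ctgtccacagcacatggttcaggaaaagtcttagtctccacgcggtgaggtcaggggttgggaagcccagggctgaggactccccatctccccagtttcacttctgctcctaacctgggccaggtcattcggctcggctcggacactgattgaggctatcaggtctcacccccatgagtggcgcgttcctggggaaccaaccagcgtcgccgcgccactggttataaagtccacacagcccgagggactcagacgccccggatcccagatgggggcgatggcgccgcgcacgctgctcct
H2-Aa: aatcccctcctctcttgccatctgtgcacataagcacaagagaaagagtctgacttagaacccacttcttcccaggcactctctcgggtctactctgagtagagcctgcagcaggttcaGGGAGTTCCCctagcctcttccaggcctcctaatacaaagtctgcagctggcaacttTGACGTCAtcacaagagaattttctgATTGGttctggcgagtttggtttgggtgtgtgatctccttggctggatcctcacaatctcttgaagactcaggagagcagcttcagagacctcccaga
H2-Eb1: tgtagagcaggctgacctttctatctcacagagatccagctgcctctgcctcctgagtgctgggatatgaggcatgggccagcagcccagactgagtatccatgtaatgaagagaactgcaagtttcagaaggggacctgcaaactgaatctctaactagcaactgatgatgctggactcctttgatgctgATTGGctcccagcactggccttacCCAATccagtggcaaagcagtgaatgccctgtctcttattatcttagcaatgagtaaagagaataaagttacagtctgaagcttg

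RefSeq held 38 such promoters for 35 of the members. CCAAT occurred in 33 of these 38, and in 37.4% of 32851 promoters of all genes. TGACG occurred in 15 of the 38 and in 20.8% of all. The kappa B element occurred in 12 of the 38 and in 18.4% of all; each of the 12 belonged to a member of at least 1 CPM (12 of 24 promoters), and none of the 14 promoters of members under 1 CPM held it. The exact string searched for the interferon-stimulated element occurred in 4, those of B2m, Erap1, H2-T22 and H2-T23, and in 3.44% of all. Looser forms were not searched, so a promoter without the string may still hold such an element. The H2-K1, H2-D1 and H2-Q10 sequences shown hold tttcactt, unmarked, which is the start of that string on the opposite strand. Most of the members' promoters are copies of a common ancestor and are not independent, and such matches describe letters and not binding.

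In B2m, H2-D1 and H2-K1 the TGACG match was followed by CCAAT on the opposite strand, read as ATTGG, with 25 bases between the first bases of the 2 matches. H2-M3 had the same distance and H2-Aa a distance of 26 bases. H2-Q7 came close, with matches beginning at -64 and -40 from the start. The spacing of 25 or 26 bases was chosen on these same promoters after they were seen, so its count among them is a description; it occurred in 6 of the 38 member promoters, H2-K1 counted with both of its starts, and in 31 of 32851 promoters of all genes (0.0944%). The promoter of H2-Q10 held none of the searched letters, and that of H2-Eb1 held CCAAT in each orientation only. H2-D1 and H2-Aa therefore shared the arrangement although their levels per kb were 814 ± 15.7 and 3.58 ± 0.0216 CPM per kb (SD, n = 3), and H2-Q10 lacked it at 72.7 ± 2.95 CPM per kb.

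H2-D1 and H2-K1 encode the classical class I heavy chains that present peptide to CD8 T cells. H2-D1, on chromosome 17 at 35262730 to 35267499 (GRCm38, plus strand), had 2102, 2059 and 2140 CPM in replicates 1, 2 and 3. H2-K1, on chromosome 17 at 33996017 to 34000347 (minus strand), had 1039, 1023 and 1054 CPM. Every replicate of H2-D1 lay above every replicate of H2-K1, and among 20999 protein-coding genes ordered by CPM per kb H2-D1 ranked 15 and H2-K1 ranked 39.

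Per kb of exon, H2-D1 exceeded H2-K1 by 2.30-fold (log2 ratio 1.20 ± 0.0062, SD, n = 3, higher in 3 of 3 libraries). The two-sided exact sign-flip permutation test gave p = 0.25, the smallest that 3 libraries allow, and an adjusted p of 0.278 over the 10 ratios computed, which holds for each ratio below unless another is given. Of the reads of the pair, H2-D1 took 66.9% (exact 95% interval 66.5 to 67.3), 66.8% (66.3 to 67.3) and 67.0% (66.6 to 67.4) in replicates 1, 2 and 3. Such intervals cover counting error only, and not reads of H2-L or of other genes credited to either symbol. Of their 31-mers (all runs of 31 bases in a gene's annotated transcripts), 26.9% in H2-D1 and 22.8% in H2-K1 also occurred in transcripts of another gene, and 13.8% of those of H2-D1 were in H2-K1.

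The Q region holds non-classical class I genes, among them those of the Qa-2 antigen. H2-Q4 had 756, 722 and 770 CPM in replicates 1, 2 and 3 and was the highest of the region per kb, at 289 ± 9.41 CPM per kb (SD, n = 3). H2-Q1 had 332, 339 and 352 CPM, or 119 ± 3.51 CPM per kb. H2-Q6 had 295, 295 and 310 CPM, or 144 ± 4.09 CPM per kb. Per kb, H2-Q4 was thus above both in every replicate, and H2-Q6 was above H2-Q1 although it had fewer reads.

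H2-Q10, known as a secreted class I molecule made chiefly by liver, had 301, 323 and 324 CPM. H2-Q7, a Qa-2 gene, had 96.8, 88.0 and 104 CPM, and H2-Q2 had 88.3, 79.6 and 110 CPM, with replicate 3 highest and replicate 2 lowest for both. Per kb of merged exon, H2-Q10 stood above H2-Q7 and H2-Q2 in every library. It had 72.7 ± 2.95 CPM per kb, against 22.6 ± 1.88 for H2-Q7 and 42.5 ± 7.23 for H2-Q2 (SD, n = 3). Its order against H2-Q2 depends on the length used. H2-Q2 has 2181 bases of merged exon but 1262 in its longest transcript, whereas H2-Q10 has 4348 and 4328. H2-Q5, annotated as a polymorphic pseudogene, had 58.7 ± 3.69 CPM, and the pseudogene H2-Q3 had 7.21 ± 1.79 CPM. H2-Q8 and H2-Q9 had no read and also no gene of that symbol in GENCODE. The 10 symbols of the region summed to 738 ± 27.3 CPM per kb, against 1168 ± 21.0 CPM per kb for the classical pair.

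In the T region, H2-T23 encodes Qa-1, a ligand of the CD94-NKG2 receptors. It had 350, 319 and 356 CPM in replicates 1, 2 and 3, replicate 2 being lowest. Per kb it stood below H2-D1 by 6.89-fold (log2 ratio -2.79 ± 0.06, SD, n = 3, lower in 3 of 3 libraries). H2-T22, whose product is recognised by some gamma-delta T cells, had 187, 173 and 191 CPM. Its close copy H2-T10 had 34.4 ± 1.89 CPM, and the 2 genes share 47.2% of the 31-mers of H2-T22 and 47.6% of those of H2-T10, so the division of reads between them is uncertain. H2-Bl had 28.4 ± 3.57 CPM, H2-T24 19.5 ± 1.80 CPM and H2-T3, which encodes the thymus leukaemia antigen, 4.64 ± 1.26 CPM (SD, n = 3).

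In the M region a single gene had more than a few reads. H2-M3, which presents N-formylated peptides of bacteria, had 27.3, 24.2 and 24.5 CPM, or 17.6 ± 1.19 CPM per kb, and 4.62% of its 31-mers were shared. Of the other 13 M region symbols, 9 had no read and H2-M5 had the most, with 4, 2 and 3 reads. H2-K2, a transcribed pseudogene beside H2-K1, had 127, 128 and 133 CPM. The plot along chromosome 17 shows that levels did not change evenly along the complex, since genes of high and low level lay next to each other in the K, class II, D to Q and T segments.

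**Figure D2:**
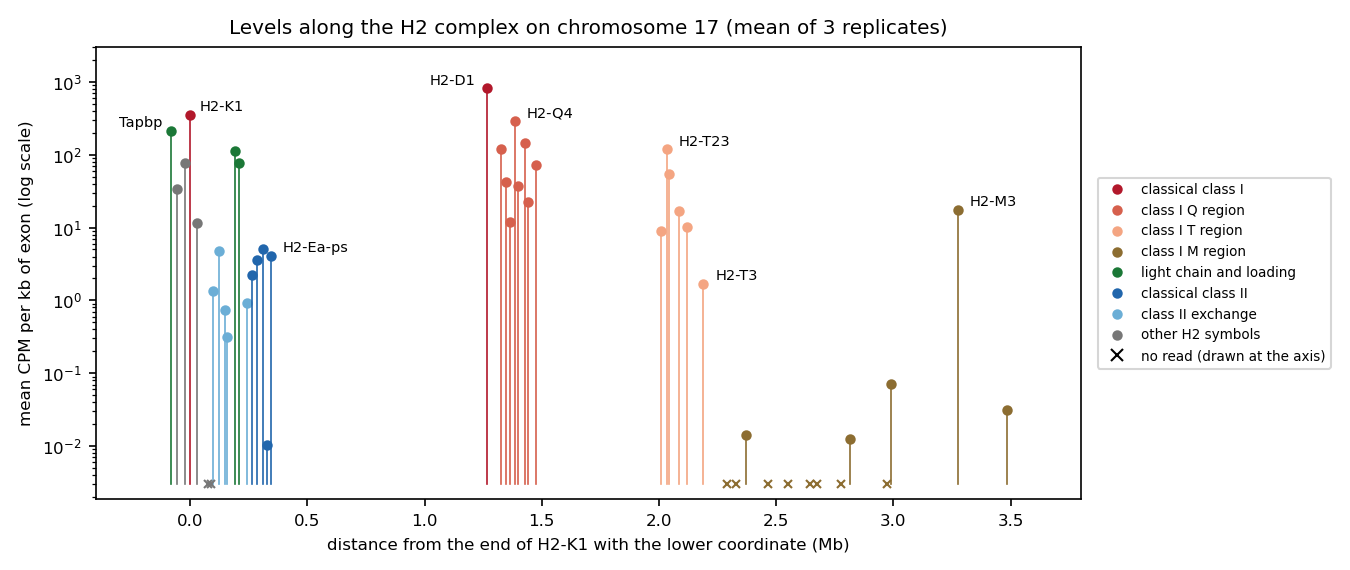
Mean level of the members on chromosome 17, as CPM per kb of exon on a log axis, against distance in Mb from the lower-coordinate end of H2-K1. Class II genes are low between H2-K1 and the class I genes of the D and Q regions, with the loading genes Tap1 and Tap2 higher among them, and the M region lies farthest away with H2-M3 as its only gene of at least 1 CPM.

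Over all 35 class I heavy chain symbols, 18 had at least 1 CPM and 13 had no read. They summed to 5853, 5727 and 6024 CPM in replicates 1, 2 and 3. Of these reads H2-D1 took 35.8 ± 0.240%, H2-K1 17.7 ± 0.188%, H2-Q4 12.8 ± 0.150%, H2-T23 5.82%, H2-Q1 5.81%, H2-Q10 5.39% and H2-Q6 5.11%. The 2 classical genes therefore held the larger part of the reads, and the spread between libraries was small beside the steps between the first 3 genes.

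Shared sequence limits these shares. Of the 18 class I symbols of at least 1 CPM, 13 shared over 20% of their 31-mers with another gene. H2-T22 had 67.4%, H2-T10 64.2%, H2-Q5 57.8%, H2-Q4 53.0% and H2-Q6 51.8%. H2-Q4 and H2-Q6 shared 19.5% and 24.6% of theirs with each other, H2-Q7 and H2-Q10 22.4% and 21.9%, and 43.2% of H2-Q5 was found in H2-Q7. Since no source used here tells how multi-mapping reads were counted, levels of these genes are uncertain.

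**Figure D3:**
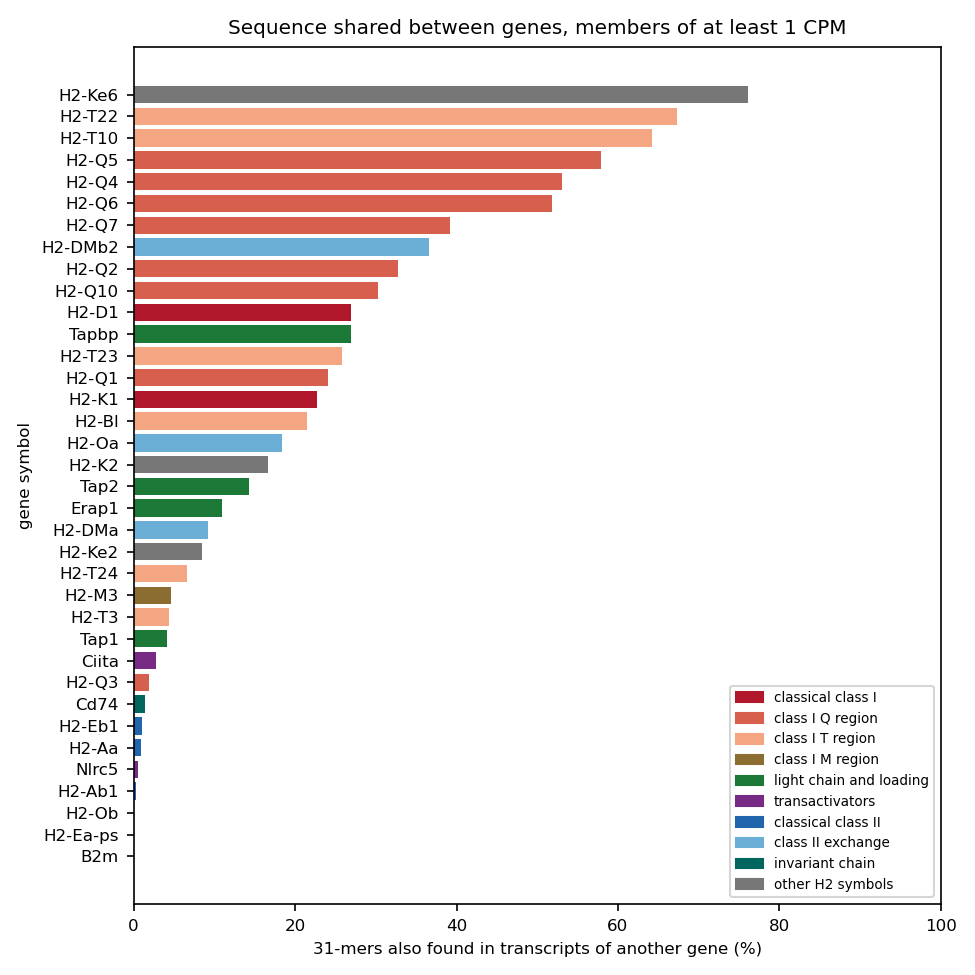
Percentage of each member's 31-mers, in annotated transcripts of C57BL/6 origin, that also occur in transcripts of another gene, for members of at least 1 CPM. The longest bar is that of H2-Ke6, 76.1%, which overlaps another gene, followed by the class I heavy chain genes H2-T22, 67.4%, and H2-T10, 64.2%, while B2m and H2-Ea-ps share 0%.

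Peptide loading begins with B2m, the light chain of every class I molecule. B2m, on chromosome 2 at 122147686 to 122153083 (plus strand), had 1057, 1035 and 1115 CPM in replicates 1, 2 and 3, and shared none of its 31-mers. At 1243 ± 47.9 CPM per kb (SD, n = 3) it was the highest member and ranked 8 of the 20999 coding genes. Against the sum of H2-K1 and H2-D1, which was 1168 ± 21.0 CPM per kb, B2m was 1.06-fold higher (log2 ratio 0.09 ± 0.03, higher in 3 of 3 libraries). That direction depends on the length used: with the longest transcript of each gene the log2 ratio was -0.32, and with read counts not scaled by length it was -1.55.

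Tap1 and Tap2 form the transporter that brings peptides from the cytosol into the endoplasmic reticulum. Tap1 had 596, 608 and 619 CPM, and Tap2 had 295, 274 and 303 CPM. Both overlap other genes, and 4.09% of the 31-mers of Tap1 and 14.3% of those of Tap2 were shared. Tap1 RNA was 1.44-fold higher per kb (111 ± 2.12 against 76.9 ± 3.88 CPM per kb, log2 ratio 0.53 ± 0.07, higher in 3 of 3 libraries). That difference in RNA exceeded the spread between replicates, which does not cover errors from the length used or from shared reads. The size of the ratio depends on the length used: the log2 ratio was 0.88 with longest transcripts and 1.06 without length scaling.

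Tapbp encodes tapasin, which bridges the transporter and the class I molecule and edits its peptide. It had 777, 738 and 801 CPM and ranked 80 of the coding genes per kb. It overlaps other genes, and 26.9% of its 31-mers were shared. Its relative Tapbpl, which edits peptide outside the loading complex, was lower, and Tapbp exceeded it 4.04-fold per kb (213 ± 8.73 against 52.6 ± 1.31 CPM per kb; log2 ratio 2.02 ± 0.06, higher in 3 of 3 libraries). Without length scaling that log2 ratio was 2.64. Erap1, the aminopeptidase that trims peptides in the endoplasmic reticulum, had 187, 186 and 168 CPM, lowest in replicate 3. It overlaps Cast, and 11.0% of its 31-mers were shared. All 5 loading members were above 100 CPM.

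Helpers of class I folding that are not members were also at high levels. All 14 genes of that list had at least 1 CPM and 12 had at least 100 CPM. The lectin chaperones Calr and Canx had 921 ± 11.5 and 650 ± 15.9 CPM, the chaperone Hspa5 had 726 ± 20.9 CPM, and Pdia3, the disulfide isomerase of the loading complex, had 537 ± 12.4 CPM (SD, n = 3). Of the 5 genes of the immunoproteasome and its cap, which shape the peptide supply, 4 had at least 100 CPM. The cap subunits Psme1 and Psme2 had 400 ± 2.83 and 130 ± 5.11 CPM, and the catalytic subunit Psmb9 115 ± 4.05 CPM. Psmb8, another catalytic subunit, had 208, 188 and 241 CPM in replicates 1, 2 and 3.

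Nlrc5 is the transactivator of class I genes and Ciita that of class II genes. Nlrc5 had 540, 574 and 525 CPM, whereas Ciita had 35, 26 and 25 reads, or 1.86 ± 0.178 CPM (SD, n = 3). Per kb, Nlrc5 stood 324-fold above Ciita (64.4 ± 2.95 against 0.195 ± 0.0187 CPM per kb; log2 ratio 8.34 ± 0.07, higher in 3 of 3 libraries). Per kb, Ciita was the lowest of the 36 members of at least 1 CPM, and no replicate of it overlapped with H2-DMb2, the next in order; in CPM, without length scaling, H2-DMb2 was lower at 1.29 ± 0.728 and both overlapped.

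Both transactivators work with the same DNA-binding factors and acetyltransferases, and all 10 genes of that list had at least 1 CPM. The acetyltransferases Ep300 and Crebbp had 226 ± 7.50 and 187 ± 13.6 CPM, Creb1 had 109 ± 6.60 CPM and the NF-Y subunit Nfya 68.7 ± 4.23 CPM. Of the 9 genes of the interferon route that induces MHC transcription, all had at least 1 CPM and 6 had at least 100 CPM. Jak1 had 479 ± 17.8 CPM, Irf1 403 ± 11.0 CPM and Jak2 246 ± 3.81 CPM (SD, n = 3).

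Class II transcripts were present at low levels. H2-Aa, the alpha chain of the I-A molecule, had 259, 171 and 201 reads in replicates 1, 2 and 3, or 13.6 ± 0.082 CPM. H2-Ab1, the I-A beta chain, had 97, 81 and 87 reads, or 5.80 ± 0.657 CPM. H2-Eb1, the I-E beta chain, had 187, 134 and 130 reads, or 9.74 ± 0.874 CPM (SD, n = 3). None of these 3 passed the test of differences between libraries described below (edgeR, adjusted p from 0.512 for H2-Ab1 to 0.993 for H2-Aa).

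H2-Ea-ps is the I-E alpha chain, a functional gene in the d haplotype but without expression in the b haplotype of the reference strain, hence its annotation as a polymorphic pseudogene. It had 95, 51 and 53 reads, or 4.06 ± 0.686 CPM per kb, and shared none of its 31-mers. Its replicates overlapped with those of H2-Eb1, at 5.01 ± 0.449 CPM per kb, and of H2-Aa, at 3.58 ± 0.0216 CPM per kb (SD, n = 3). In the order of levels per kb of merged exon, H2-Eb1 was followed by H2-DMa, H2-Ea-ps and H2-Aa. H2-Eb2 had 2 reads, all in replicate 1.

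Cd74, the invariant chain that fills the groove of new class II molecules, had 375, 234 and 262 reads, or 18.7 ± 0.959 CPM. Per kb it was at 1.02-fold of the sum of H2-Aa, H2-Ab1 and H2-Eb1 (11.1 ± 0.571 against 10.8 ± 0.558 CPM per kb). The log2 ratio of 0.03 ± 0.10 was above 0 in 2 of 3 libraries, with p = 0.75 in the exact sign-flip permutation test, also after adjustment. It became -0.17 with longest transcripts, -0.65 without length scaling and -0.02 without replicate 1, so no direction was established.

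H2-DM removes the invariant chain peptide and H2-O inhibits H2-DM. H2-DMa had 334, 202 and 227 reads, or 16.3 ± 1.10 CPM, but overlaps Brd2 and shares 9.23% of its 31-mers. The beta chain genes had far fewer: H2-DMb1 had 4, 7 and 12 reads, and H2-DMb2 had 20, 9 and 31. They shared 31.4% and 36.6% of their 31-mers with another gene, mostly with each other (31.4% and 29.7%). The levels of both are therefore uncertain, and the effect on their ratio to H2-DMa was not tested. Per kb H2-DMa exceeded the sum of both 4.69-fold (log2 ratio 2.23 ± 0.75, higher in 3 of 3 libraries), with a smaller ratio in replicate 3, at 1.37, than in replicates 1 and 2, at 2.75 and 2.57. The mean log2 ratio was 2.77 with longest transcripts and 3.23 without length scaling. H2-Oa had 50, 24 and 16 reads, and H2-Ob had 76, 77 and 72.

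Between the classes, the sum of H2-K1 and H2-D1 was 107-fold above the sum of H2-Aa, H2-Ab1 and H2-Eb1 (1168 ± 21.0 against 10.8 ± 0.558 CPM per kb; log2 ratio 6.75 ± 0.10, SD, n = 3, higher in 3 of 3 libraries). All 11 class II and invariant chain symbols summed to 77.0 ± 2.50 CPM. Markers of other cells were present beside them. Of 10 B cell markers, 8 had at least 1 CPM, none was at 0, and the list summed to 21.7 to 24.5 CPM. Of 10 dendritic cell markers 2 had at least 1 CPM, Zbtb46 at 9.49 ± 1.22 and Ccr9 at 3.32 ± 0.136 CPM (SD, n = 3). These made up most of the sum of 13.0 to 15.8 CPM, and Clec9a and Cd209a were at 0. Of 10 macrophage and monocyte markers 1 had at least 1 CPM, Cd68 at 4.08 ± 0.406 CPM. It made up most of the sum of 3.95 to 5.03 CPM, and Csf1r, C1qa, C1qc and Fcgr1 were at 0.

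The part of such other cells in the class II reads was not tested. Of 12 class II processing genes 10 had at least 1 CPM. The proteases Ctsd and Ctsb, which also act in cells without class II, had 250 ± 3.27 and 146 ± 2.86 CPM, the tetraspanin Cd82 had 199 ± 7.39 CPM and the protease Sppl2a, which cleaves the invariant chain remnant, 69.0 ± 1.34 CPM.

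**Figure D4:**
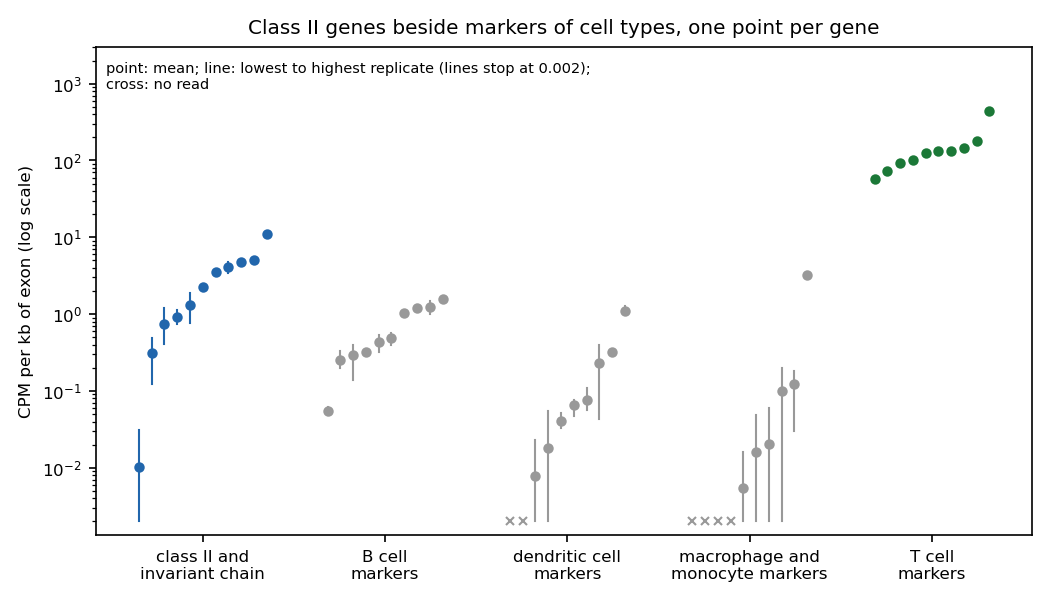
Level per kb of exon, on a log axis, of class II and invariant chain genes beside markers of B cells, dendritic cells, macrophages and T cells; each point is the mean of 1 gene over the 3 libraries, the line its lowest to highest library and a cross a gene with no read. H2-Aa, H2-Ab1, H2-Eb1 and Cd74, at 2.26 to 11.1 CPM per kb, lie above the B cell receptor genes Cd79a, at 1.22 CPM per kb, and Cd79b, at 1.23, and all class II genes lie below the T cell markers.

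In the order of the 36 members of at least 1 CPM by level per kb, 17 of 35 neighbouring pairs had replicate values that did not overlap. From the top, B2m, H2-D1, H2-K1, H2-Q4, Tapbp, H2-Q6 and H2-Q1 were each separate from the next named. H2-Q1, H2-T23 and Tap1 overlapped in turn, as did Tap2, H2-K2 and H2-Q10. This order rests on merged exons and was not computed with longest transcripts, which would move some genes. Tap1, for example, has 5476 bases of merged exon and 3911 in its longest transcript, and H2-DMa has 3448 and 2005.

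Whether the replicates differed by more than counting error was tested over all 13500 genes that reached 1 CPM in at least 2 libraries (edgeR likelihood-ratio test with dispersion 0, Benjamini-Hochberg adjusted p under 0.05). Of the 36 members tested 20 varied, beside 13.7% of all genes tested. High counts make small differences detectable, and within levels the members' calls were 4 of 9 under 10 CPM (4.62% of all genes at that level), 4 of 12 at 10 to 100 CPM (11.6%), 10 of 12 at 100 to 1000 CPM (32.5%) and 2 of 3 at 1000 CPM and above (81.4%). The sizes were small: the median log2 range from the lowest to the highest library was 0.17 for the members and 0.17 for all genes tested. By level it was 0.61 for members and 0.38 for all genes under 10 CPM, 0.17 and 0.15 at 10 to 100 CPM, 0.12 and 0.09 at 100 to 1000 CPM, and 0.06 and 0.09 at 1000 CPM and above.

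The count depends on single libraries. It was 12 without replicate 1, 12 without replicate 2 and 8 without replicate 3, beside 8.48%, 9.03% and 5.61% of all genes tested. H2-DMb2 was not tested without replicate 1 or without replicate 3, because it then reached 1 CPM in too few libraries. Without replicate 3 the calls of B2m, Erap1, H2-D1, H2-Ke2, H2-Oa, H2-Q1, H2-Q2, H2-Q7, H2-T22, H2-T3 and Tap1 were lost. Without replicate 1 those of H2-Bl, H2-Ke2, H2-Oa, H2-Q1, H2-Q10, H2-Q3, H2-T3 and Tap1 were lost and H2-K1 was called, and without replicate 2 those of H2-DMb2, H2-Q3, H2-Q4, H2-Q7, H2-T22, H2-T23, Nlrc5 and Tap2 were lost. Among genes with under 5% of their 31-mers shared, 5 of 13 members varied, beside 12.8% of all genes, and members that share reads with each other do not vary independently.

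H2-Q2 had the smallest adjusted p of the members (edgeR, adjusted p = 2.35e-15), with a log2 range of 0.48. For B2m the adjusted p was 2.75e-10 at a log2 range of 0.11, for Tapbp 1.63e-07 at 0.13, for H2-T23 3.98e-06 at 0.16, for Nlrc5 2.64e-05 at 0.12 and for H2-D1 3.49e-05 at 0.06 (edgeR). H2-Q2, B2m, Tapbp, H2-T23 and H2-D1 were highest in replicate 3 and lowest in replicate 2, whereas Nlrc5 was highest in replicate 2 and lowest in replicate 3. H2-K1 did not pass (edgeR, adjusted p = 0.0689), and neither did H2-Q6 (0.0617).

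Among class I genes the largest log2 ranges were those of the low genes H2-T3, 0.81 (edgeR, adjusted p = 0.0181), and H2-Q3, 0.74 (0.00681). H2-T3 had 3.20, 5.13 and 5.57 CPM and H2-Q3 had 5.25, 8.76 and 7.61 CPM, each lowest in replicate 1. In the class II group H2-DMb2, at 1.05, 0.710 and 2.11 CPM, and H2-Oa, at 2.63, 1.89 and 1.09 CPM, passed with log2 ranges of 1.52 and 1.23 (edgeR, adjusted p = 0.03 and 0.0403), while H2-Aa, H2-Ab1, H2-Eb1, H2-Ea-ps, H2-DMa, H2-Ob, Cd74 and Ciita did not.

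Of the 20 varying members 15 were highest in replicate 3, as were 44.3% of all 1847 varying genes. Erap1, H2-Bl and H2-Oa were highest in replicate 1 (27.1% of all varying genes), and Nlrc5 and H2-Q3 in replicate 2 (28.5%). Replicate 2 was the lowest library for 11 of the 20 members (35.3% of all varying genes), replicate 1 for 6 (32.9%) and replicate 3 for 3 (31.8%). Outside the members, Psmb8 varied most among the immunoproteasome genes, also highest in replicate 3 (edgeR, adjusted p = 7.55e-20, log2 range 0.37), and it was the only 1 of those 5 to pass. In the other pathway lists the same test called 2 of 14 folding helpers, 3 of 10 enhanceosome partners, 1 of 9 interferon route genes and 1 of 10 tested class II processing genes, beside 13.7% of all genes tested. Of the listed genes, 12 folding helpers, 3 enhanceosome partners, 6 interferon route genes and 3 class II processing genes had at least 100 CPM. At 100 to 1000 CPM 32.5% of all genes tested were called. The test called 7 of 10 T cell markers, which all lay in that range. The smallest adjusted p was 0.0554 among 8 tested B cell markers, 0.300 among 2 dendritic cell markers and 0.738 for the 1 macrophage marker tested (edgeR).

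**Figure D5:**
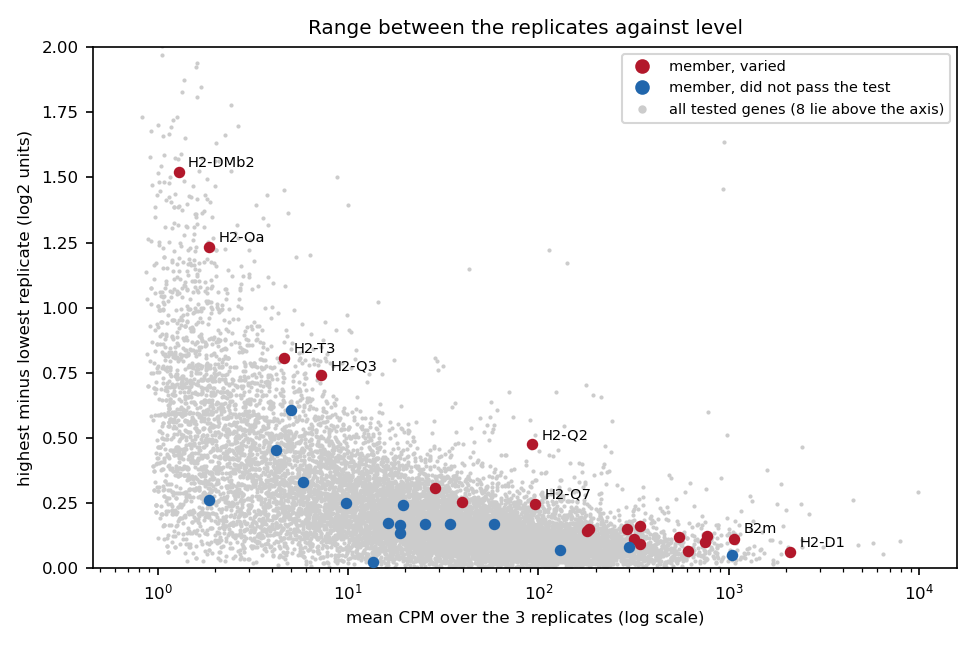
Log2 range from the lowest to the highest library against mean CPM on a log axis; grey points are all genes tested, of which 8 lie above the axis, red points are members that varied between libraries (edgeR, adjusted p under 0.05) and blue points members that did not. At high CPM members pass with small ranges, such as 0.06 for H2-D1.

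The remaining H2 symbols are not MHC molecules or had no read. H2-Ke2 is an older name of Pfdn6, a subunit of the chaperone prefoldin, and had 39.8 ± 3.68 CPM. H2-Ke6 is an older name of Hsd17b8, a steroid and fatty acid dehydrogenase, and had 18.8 ± 1.19 CPM, with 76.1% of its 31-mers shared through its overlap with Gm20427. H2-Pa, H2-Pb and H2-D4 had no read, and H2-D4 had no gene of that symbol in GENCODE.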

How the data were processed

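The authors deposited 1 table of read counts per gene symbol for 3 libraries made with an Ion Proton RNA-seq kit, per the labels' protocols. The values are unnormalized whole-number counts, 12669690 to 19041670 per library, which limit the precision of low genes. The submitters' processing notes name mm10 as the build. Which aligner, counting tool, annotation and strand setting were used, and how multi-mapping reads were treated, is not given in the sources used here. Reads of near-identical, overlapping or antisense genes may therefore be misassigned.

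CPM was computed from library totals. With 1 group no contrast could be fitted, so differences between libraries were tested with edgeR 4.0.16 (likelihood-ratio test after glmFit at dispersion 0 with TMM factors, Benjamini-Hochberg adjustment over all 13500 genes with at least 1 CPM in at least 2 libraries). Tested on counts simulated for 13511 genes, the test called 70 of 100 genes altered 1.5-fold, 91 of 100 altered 2-fold and 15 unaltered genes. These counts were simulated with counting error only (Poisson), which the test itself assumes, and smaller changes were not simulated. For ratios 0.5 was added to the counts, read shares had 95% Clopper-Pearson (exact) intervals, and the test was an exact sign-flip permutation test. Exon lengths, positions and shared 31-mers came from GENCODE vM21 (GRCm38), which held 52 members; H2-T3-like, H2-D4, H2-Q8, H2-Q9, H2-M4-ps and H2-T18, all without a read, had no gene of that symbol there. H2-Ke2 was matched through a RefSeq synonym. Of 113 entries in 11 lists of pathway genes and markers, 112 were in the table. Members, lists and tests were chosen with earlier results of these data known. Besides members, at most the 4 genes of a list with the highest mean CPM, genes entering a ratio, and marker genes at 0 were named; some results that these rules allow are not reported here. Alternatives were DESeq2 1.42.0 size factors, unscaled totals, other filters, a chi-square test, genes with little shared sequence, other lengths and added counts, and leaving out each library. Software was Python 3.11.15 (numpy 2.4.6, pandas 2.3.3, scipy 1.17.1, matplotlib 3.10.9) and R 4.3.3.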

Additional observations from a re-analysis of the deposited data

How the results depend on the processing

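Of 97 values computed under other settings, 85 kept their direction and their side of the threshold, or for counts stayed within 1.5 times, 7 counts of varying genes fell by over 1.5 times, and 5 ratios changed direction. Among ratios that kept their direction, the fold of 2 moved by over 1.5 times without length scaling. That of H2-DMa to its beta chain genes became 9.38-fold (log2 3.23), against 4.69-fold (log2 2.23). That of Tapbp to Tapbpl became 6.24-fold (log2 2.64), against 4.04-fold (log2 2.02). The 5 changes of direction belonged to ratios near 1: B2m to the sum of H2-K1 and H2-D1 (log2 0.09) became -0.32 with longest transcripts and -1.55 with unscaled read counts, and Cd74 to the class II sum (0.03) became -0.17 and -0.65 under the same settings and, with 1 library left out, lay between -0.023 and 0.080. Both length settings change the lengths by construction, and the cause of the change without replicate 1 was not tested. The number of varying members, 20, ranged from 8 to 12 with 1 library left out, and that of all varying genes, 1847, from 742 to 1193; these fits compare 2 libraries in place of 3. Among genes with under 5% shared 31-mers, 5 of 13 members and 911 of 7103 genes varied, a setting that leaves fewer genes to test. DESeq2 size factors gave 20, unscaled totals 18, no filter on low counts 18, a mean of at least 5 CPM 17 and a chi-square test 18. No paired analysis was possible because all libraries belong to 1 group. Depth limits the low class II exchange genes and Ciita, counted with 4 to 77 reads per library apart from H2-DMa.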

Other observations

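Class I-like genes outside the H2 symbols were low in these T cells. Of 12 such genes, 4 had at least 1 CPM and none reached 100 CPM. H60b and Ulbp1, which encode ligands of the activating receptor NKG2D, had 19.1 ± 1.04 and 18.0 ± 1.68 CPM (SD, n = 3). Cd1d1, which presents lipids to NKT cells, had 4.48 ± 0.336 CPM, and Mr1, which presents vitamin B metabolites to MAIT cells, had 3.62 ± 0.662 CPM. None of the 4 passed the test of differences between libraries (edgeR, adjusted p from 0.255 for Ulbp1 to 0.827 for Cd1d1).

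Of 10 genes for receptors of MHC molecules, 7 had at least 1 CPM. Cd3e, a chain of the T cell receptor complex, had 393, 429 and 428 CPM in replicates 1, 2 and 3. The co-receptor of class II, Cd4, had 364, 377 and 387 CPM, and a chain of the co-receptor of class I, Cd8a, had 144, 140 and 144 CPM. Lag3, an inhibitory receptor that binds class II, had 117 ± 5.05 CPM, and Klra1, an Ly49 receptor of class I, was at 0. Cd3e and Cd4 were the 2 of 7 tested that varied (edgeR, adjusted p = 3.31e-07 and 0.0115), each lowest in replicate 1. Of all genes tested 13.7% varied, and 32.5% of those at 100 to 1000 CPM, where Cd3e and Cd4 lay.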
